A study of Mus musculus with 9 samples.

Results

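A set of 10 genes that detect bacterial products or restrain the response to them was followed in mouse liver. They are the Toll-like receptor genes Tlr2, Tlr4 and Tlr5, the endotoxin-binding genes Lbp, Cd14 and Ly96, the adaptor gene Myd88, and the feedback genes Nfkbia, Tnfaip3 and Il1rn. They were chosen by name, by matching each symbol to its Ensembl identifier, and all 10 were found among 54007 rows of the deposited table. No rule on their values was used to choose them, but earlier results of these data were known at the time.

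Toll-like receptors sit on macrophages, endothelial cells and, for some members, hepatocytes. Each recognises a class of microbial molecule: Tlr4 responds to endotoxin of Gram-negative bacteria, Tlr2 to bacterial lipoproteins and Tlr5 to flagellin, the protein of bacterial flagella. Endotoxin is handed from the plasma protein Lbp to Cd14 and then to the complex of Ly96 and Tlr4. Myd88 carries the signal inward to the transcription factor NF-kB. NF-kB in turn switches on its own restraints, among them the inhibitor Nfkbia, the ubiquitin-editing enzyme Tnfaip3 and the interleukin receptor antagonist Il1rn. The liver receives blood directly from the gut, and its resident macrophages, the Kupffer cells, clear bacterial products from it.

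The livers came from C57BL/6 mice aged 98 days after birth, in 3 groups with 3 RNA libraries apiece. The HFD+Pc group received a high-fat diet and gavage of the gut bacterium *Papillibacter cinnamivorans*, and its libraries are numbered 1, 3 and 4. The HFD group received the high-fat diet alone, and its libraries are numbered 1, 2 and 3. The control group, with libraries 1, 2 and 4, is labelled only as control. All 3 groups share strain, tissue and age. The study began with 45 mice 6 weeks old, 15 to a group. The sex, the diets' composition and the dose of bacteria are not given in the sources used here, nor is it said whether each library came from a single animal or from several. The p-values therefore measure only how far these libraries scatter, which may be technical. A gavage of vehicle or of another bacterium was not analysed here, so the handling of gavage and the bacterium cannot be told apart.

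Levels are FPKM, fragments scaled to transcript length and library size, as the authors deposited them. Each library held 16514058 to 18895057 whole reads, recovered from the steps of its values, and the number of genes at 1 FPKM or more was 10323 to 10587. The lowest level told from 0, taken as 3 reads, was 0.160 to 0.179 FPKM for a transcript of 1 kb, counting error alone considered. All 11 hepatocyte markers found in the table were detected, with summed levels of 45347 to 59411 FPKM in HFD+Pc, 40502 to 42763 in HFD and 55960 to 57460 in control livers. Ly6g, a defining marker of neutrophils, was listed at 0 in every library, the only 1 of 12 neutrophil markers to be so. Among the others, S100a8 lay at 0.594 to 6.26 FPKM and S100a9 at 1.35 to 7.75 FPKM over the 9 libraries.

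The levels of the 10 genes spanned a wide range, and their order was much the same in the 3 groups. Lbp and Nfkbia led in each group, Myd88 came next, and Tlr4 and Tnfaip3 stayed below 1 FPKM on average in each. In HFD+Pc livers the order of mean FPKM was Lbp, Nfkbia, Myd88, Ly96, Tlr5, Cd14, Tlr2, Il1rn, Tlr4 and Tnfaip3. In HFD livers Tlr5 and Cd14 stood above Ly96, and in control livers Cd14 stood in the place after Myd88 while Il1rn came last. Libraries of neighbouring genes overlapped for Lbp and Nfkbia in HFD+Pc and control livers, but not in HFD livers. Tlr4 and Tnfaip3 overlapped in every group. Cd14 overlapped with Tlr5 and with Ly96 in HFD livers, with Tlr5 and Tlr2 in HFD+Pc livers and with neither neighbour in control livers.

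**Figure D1:**
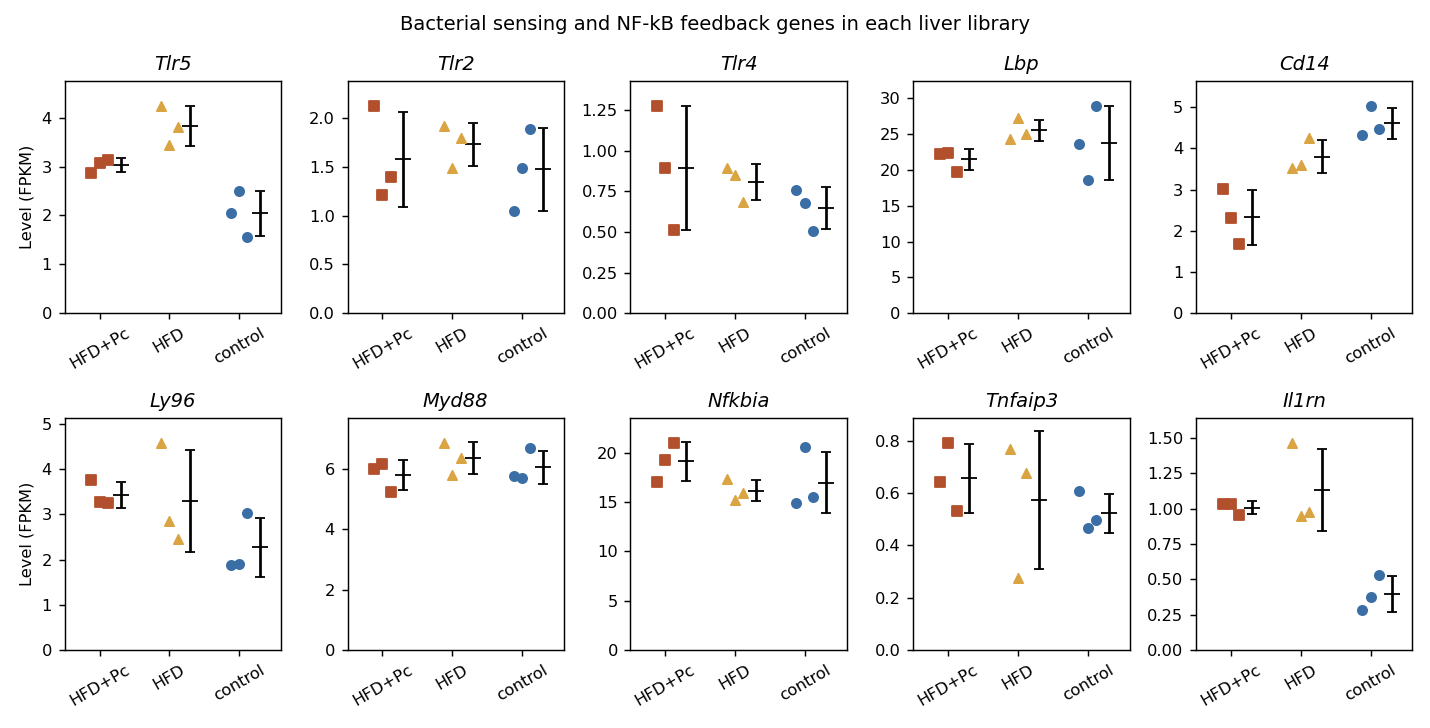
Level in FPKM (vertical axes, each from 0 with its own scale) of the 10 genes in the 9 liver libraries; squares are HFD+Pc, triangles HFD and circles control libraries, each a single library, and the bars beside them give the mean ± SD (n = 3). The HFD and HFD+Pc libraries of Tlr5 and Il1rn all lie above the control libraries, and the HFD+Pc libraries of Cd14, 1.68 to 3.00 FPKM, all lie below both other groups.

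Differences were tested with limma on log2(FPKM + 1), fitted to all genes that reached 1 FPKM in 3 libraries or more, and a gene is said to have changed where its adjusted p was under 0.05. This scale understates the change of genes near 1 FPKM. Of the 10 genes, 8 were tested. Tlr4, which reached 1 FPKM in 1 library, and Tnfaip3, which reached it in 0, were not, and they are described from a fit with a minimum of 0.1 FPKM. Il1rn passed with exactly 3 libraries, HFD replicate 1 and HFD+Pc replicates 1 and 3, and no control library, so it could enter the test only through the groups in which it was high.

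The comparison of HFD with control asks what the diet goes with. Tlr5 and Il1rn rose in HFD livers, and none of the 8 tested genes fell. That is 2 of 8, or 1 of 7 without Il1rn, whose entry into the test favoured a difference, where 9.97% of all 10988 tested genes passed (4.61% higher and 5.35% lower). The median difference was 0.14 on the log2 scale over the 8 genes and 0.12 over the 7 without Il1rn, beside -0.00 for all tested genes. The HFD and control libraries did not overlap for 3 of the 10 genes, Tlr5 and Il1rn above and Cd14 below the controls, while 32.9% of tested genes did not overlap (16.5% above and 16.4% below). At an unadjusted p under 0.05 the same 2 genes passed, beside 27.8% of tested genes, and limma-voom on recovered reads, with a minimum of 0.1 FPKM, called 2 of the 10 genes and 7.97% of those it tested.

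The comparison of HFD+Pc with HFD asks what the bacterium goes with on the same diet. None of the 8 genes changed by limma at an adjusted p under 0.05, as was so for nearly all genes, since 0.628% of tested genes passed. At an unadjusted p under 0.05, 1 of the 8 passed, Cd14, beside 15.6% of tested genes, and limma-voom on recovered reads called 0 of the 8 with the same filter, and 1.67% of the genes it tested. Tlr5, Cd14 and Lbp had every HFD+Pc library below every HFD library, 3 of 10 genes, where 9.56% of tested genes lay fully below and 19.8% did not overlap. The median difference was -0.11 over the 8 genes and also -0.11 over the 7 without Il1rn, beside 0.01 for all tested genes.

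The comparison of HFD+Pc with control takes diet and bacterium together, and it uses the same control libraries as the first. Tlr5 and Il1rn rose and Cd14 fell in HFD+Pc livers, 3 of 8 tested genes, or 2 of 7 without Il1rn, where 23.1% of tested genes passed (11.1% higher and 11.9% lower). The libraries did not overlap for 4 of the 10 genes, these 3 and Ly96, while 42.8% of tested genes did not overlap (22.1% above and 20.8% below). At an unadjusted p under 0.05, 4 of the 8 passed, beside 38.2% of tested genes, and limma-voom called 3 of the 10 genes and 15.3% of those it tested. The median difference was 0.11 over the 8 genes and 0.06 over the 7 without Il1rn, beside 0.01 for all tested genes.

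**Figure D2:**
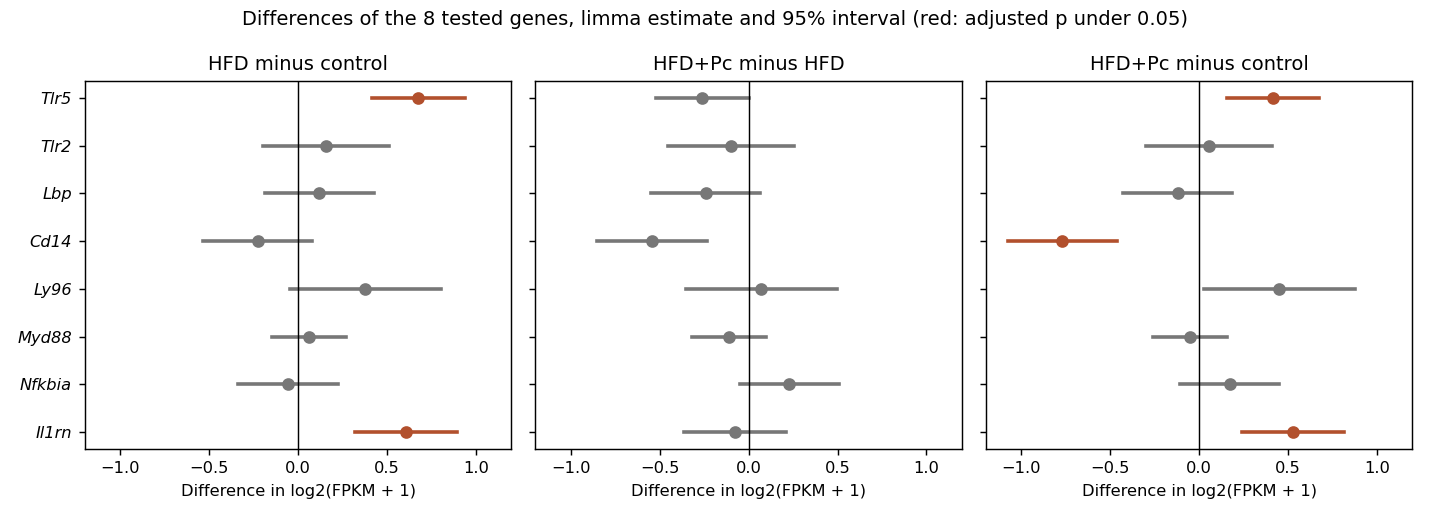
Difference in log2(FPKM + 1) (horizontal axes) of the 8 tested genes in the 3 comparisons, estimated by limma over 9 libraries; points are estimates, lines their 95% intervals, and red marks an adjusted p under 0.05. Tlr5 and Il1rn lie right of 0 in HFD minus control (0.68 and 0.61) and in HFD+Pc minus control (0.42 and 0.53), Cd14 lies left of 0 in HFD+Pc minus control (-0.77), and no gene is red in HFD+Pc minus HFD.

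Among the receptors, Tlr5 (ENSMUSG00000079164) differed most. Its levels were 2.86, 3.08 and 3.14 FPKM in HFD+Pc libraries 1, 3 and 4, 4.24, 3.43 and 3.82 FPKM in HFD libraries 1, 2 and 3, and 2.05, 2.51 and 1.57 FPKM in control libraries 1, 2 and 4. Other genes are given in this library order. No group overlapped with another: every HFD library was highest, every control library lowest, and the HFD+Pc libraries lay between and close together. Mean levels were 3.03 ± 0.144 FPKM in HFD+Pc, 3.83 ± 0.404 in HFD and 2.04 ± 0.470 in control livers (SD, n = 3 each). Tlr5 rose in HFD livers to 1.88 times its control mean, a difference of 0.68 ± 0.12 (SE) on the log2(FPKM + 1) scale with a 95% interval of 0.42 to 0.94 (limma adjusted p = 0.0127). This call held whichever of the 9 libraries was left out (limma adjusted p = 0.0168 to 0.0402), but not with no filter on low values (limma adjusted p = 0.0507).

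In HFD+Pc livers Tlr5 was 1.48 times its control mean, a rise of 0.42 ± 0.12 (limma adjusted p = 0.0301). That call was lost without control replicate 1 or 4 or without HFD+Pc replicate 1, 3 or 4 (highest limma adjusted p = 0.0877), and with no filter (limma adjusted p = 0.0898). Between HFD+Pc and HFD livers the difference was -0.26 ± 0.12, with a 95% interval of -0.52 to 0.00 (limma adjusted p = 0.321). The exact permutation test of the means gave p = 0.1 in each of the 3 comparisons, two-sided, which is the smallest that 3 libraries against 3 can give.

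Tlr2 (ENSMUSG00000027995) had 2.13, 1.21 and 1.39 FPKM in HFD+Pc, 1.92, 1.49 and 1.80 FPKM in HFD and 1.05, 1.48 and 1.89 FPKM in control libraries. The highest value was HFD+Pc replicate 1 and the lowest control replicate 1, and the 3 groups overlapped. Differences were 0.16 for HFD minus control, -0.10 for HFD+Pc minus HFD and 0.06 for HFD+Pc minus control, each ± 0.16 (limma adjusted p = 0.561, 0.812 and 0.824). The intervals ran from -0.20 to 0.51, from -0.45 to 0.26 and from -0.30 to 0.41, and a difference within them could not be told from 0.

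Tlr4 (ENSMUSG00000039005), the endotoxin receptor itself, was among the lowest of the 10. It had 1.28, 0.891 and 0.512 FPKM in HFD+Pc, 0.893, 0.849 and 0.685 FPKM in HFD and 0.760, 0.678 and 0.508 FPKM in control libraries, on 48 to 124 recovered reads a library. The groups overlapped, and the spread was widest in HFD+Pc livers, where replicate 1 was the highest of all 9 libraries. Differences with the minimum of 0.1 FPKM were 0.14 for HFD minus control, 0.05 for HFD+Pc minus HFD and 0.18 for HFD+Pc minus control, each ± 0.14 (limma adjusted p = 0.637, 0.932 and 0.449).

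In the chain that hands endotoxin to Tlr4, the soluble carrier Lbp (ENSMUSG00000016024), which hepatocytes secrete, had the highest level of the 10 genes. It had 22.3, 22.4 and 19.8 FPKM in HFD+Pc, 24.4, 27.2 and 25.0 FPKM in HFD and 23.6, 18.7 and 28.9 FPKM in control libraries. All HFD+Pc libraries lay below all HFD libraries, while the control libraries spanned both groups, with the lowest and the highest value of all 9. The difference for HFD+Pc minus HFD was -0.24 ± 0.14, with a 95% interval of -0.55 to 0.07 (limma adjusted p = 0.434). For HFD minus control it was 0.12 ± 0.14 and for HFD+Pc minus control -0.12 ± 0.14 (limma adjusted p = 0.608 and 0.549).

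Cd14 (ENSMUSG00000051439), the membrane-bound co-receptor that passes endotoxin on, is carried mainly by macrophages and monocytes. Its levels were 3.00, 2.31 and 1.68 FPKM in HFD+Pc, 3.52, 3.60 and 4.26 FPKM in HFD and 4.32, 5.03 and 4.47 FPKM in control libraries. No group overlapped with another: HFD+Pc libraries were lowest and control libraries highest. Means were 2.33 ± 0.665 FPKM in HFD+Pc, 3.79 ± 0.404 in HFD and 4.61 ± 0.373 in control livers (SD, n = 3 each). Cd14 fell in HFD+Pc livers to 0.506 times its control mean, a difference of -0.77 ± 0.14 with a 95% interval of -1.08 to -0.46 (limma adjusted p = 0.00585). It passed in all 9 fits without 1 library (limma adjusted p = 0.00418 to 0.0232). Cd14 rested on 49 to 148 recovered reads a library, the fewest in HFD+Pc replicate 4. In bulk liver, fewer cells that carry Cd14 and less Cd14 transcript per cell cannot be told apart.

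Between HFD+Pc and HFD livers the Cd14 difference was -0.54 ± 0.14, with a 95% interval of -0.85 to -0.23. Its p was 0.00299 unadjusted and 0.112 after limma's adjustment over all genes, so it did not pass. Over the fits without 1 library its limma adjusted p ran from 0.0687 to 0.277. Between HFD and control livers the difference was -0.23 ± 0.14 (limma adjusted p = 0.312). The exact permutation p was 0.1, the smallest possible, in all 3 comparisons.

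Ly96 (ENSMUSG00000025779), the small protein that binds endotoxin within the Tlr4 complex, had 3.75, 3.27 and 3.25 FPKM in HFD+Pc, 4.59, 2.85 and 2.45 FPKM in HFD and 1.89, 1.90 and 3.03 FPKM in control libraries. All HFD+Pc libraries were above all control libraries, while HFD libraries overlapped with both groups, replicate 1 being the highest of all. The difference for HFD+Pc minus control was 0.45 ± 0.19, with a 95% interval of 0.03 to 0.88 (limma adjusted p = 0.111). It passed in 1 of the 9 fits without 1 library, that without HFD replicate 1 (limma adjusted p = 0.0461). For HFD minus control it was 0.38 ± 0.19 and for HFD+Pc minus HFD 0.07 ± 0.19 (limma adjusted p = 0.226 and 0.889). Ly96 rested on 33 to 86 recovered reads a library, and at 33 reads counting alone gives a coefficient of variation of 17.4%.

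Cd14 and Ly96, which serve the same receptor, were set against each other as a ratio of FPKM, chosen after their values were seen. Cd14 over Ly96 was 0.801, 0.705 and 0.516 in HFD+Pc, 0.768, 1.26 and 1.74 in HFD and 2.29, 2.64 and 1.47 in control libraries. The HFD+Pc libraries lay below all control libraries, while HFD libraries overlapped with both groups. Means were 0.674 ± 0.145 in HFD+Pc, 1.26 ± 0.486 in HFD and 2.14 ± 0.6004 in control livers. The exact permutation p was 0.1 for HFD+Pc against control, the smallest possible, and 0.2 for each of the other 2 comparisons. Cd14 was lower and Ly96 higher in every HFD+Pc library than in every control library. The 0.1 was therefore fixed before the test and adds no support.

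The adaptor Myd88 (ENSMUSG00000032508), through which Tlr2, Tlr4 and Tlr5 all signal, varied little. It had 6.02, 6.16 and 5.24 FPKM in HFD+Pc, 6.88, 5.81 and 6.37 FPKM in HFD and 5.77, 5.71 and 6.70 FPKM in control libraries. All 9 libraries lay between 5.24 and 6.88 FPKM and the groups overlapped. Differences were 0.06 for HFD minus control, -0.11 for HFD+Pc minus HFD and -0.05 for HFD+Pc minus control, each ± 0.09 (limma adjusted p = 0.714, 0.610 and 0.714). Their 95% intervals, -0.15 to 0.27, -0.32 to 0.10 and -0.26 to 0.16, were among the narrowest of the 8 genes.

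Of the feedback genes, Nfkbia (ENSMUSG00000021025), which holds NF-kB in the cytoplasm and is itself an NF-kB target, had 17.0, 19.3 and 21.04 FPKM in HFD+Pc, 17.3, 15.2 and 15.9 FPKM in HFD and 14.9, 20.5 and 15.5 FPKM in control libraries. The groups overlapped, with HFD+Pc replicate 4 and control replicate 2 highest. The difference was 0.23 ± 0.12 for HFD+Pc minus HFD, with a 95% interval of -0.05 to 0.51 (limma adjusted p = 0.416). It was -0.06 ± 0.12 for HFD minus control and 0.17 ± 0.12 for HFD+Pc minus control (limma adjusted p = 0.8002 and 0.343).

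Tnfaip3 (ENSMUSG00000019850), which removes the ubiquitin chains that carry the signal, was the lowest of the 10 in HFD+Pc and in HFD livers. It had 0.641, 0.793 and 0.533 FPKM in HFD+Pc, 0.769, 0.274 and 0.675 FPKM in HFD and 0.607, 0.464 and 0.497 FPKM in control libraries. The groups overlapped, and HFD replicate 2, with 34 recovered reads, was the lowest of all. Differences with the minimum of 0.1 FPKM were 0.03 for HFD minus control, 0.09 for HFD+Pc minus HFD and 0.12 for HFD+Pc minus control, each ± 0.13 (limma adjusted p = 0.911, 0.854 and 0.5997).

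Il1rn (ENSMUSG00000026981), a secreted protein that blocks the interleukin 1 receptor, was the feedback gene that changed. It had 1.03, 1.03 and 0.952 FPKM in HFD+Pc, 1.47, 0.947 and 0.978 FPKM in HFD and 0.280, 0.372 and 0.529 FPKM in control libraries. Every library of the groups on the high-fat diet was above every control library, and HFD and HFD+Pc libraries overlapped. Means were 1.01 ± 0.0473 FPKM in HFD+Pc, 1.13 ± 0.292 in HFD and 0.394 ± 0.126 in control livers (SD, n = 3 each), on 29 to 149 recovered reads a library. The 12 neutrophil markers, of cells that also make Il1rn, summed to 7.97 to 8.57 FPKM in HFD+Pc, 6.99 to 19.9 in HFD and 4.45 to 11.1 in control livers, so the groups overlapped, and HFD replicate 3 was highest. The 3 that were tested had positive differences in HFD against control, with a median of 0.72 on the log2 scale. None passed at a limma adjusted p under 0.05, where 9.97% of all tested genes did, and 0 by limma-voom. At an unadjusted p under 0.05, 1 passed, where 27.8% of all tested genes did. The 6 adipocyte markers summed to 2.49 to 6.26 FPKM in HFD+Pc, 5.67 to 26.3 in HFD and 0 to 0.212 in control livers. Control libraries were lowest, as for Il1rn, and HFD replicate 1 was the highest library for both. Of the 6, Adipoq, Lep, Plin1 and Retn were listed at 0 in every HFD+Pc library and every control library. The HFD+Pc sums thus came from Cfd and Cidea alone. The 1 adipocyte marker tested, the adipsin gene Cfd, rose by limma in HFD against control (3.42 on the log2 scale, limma adjusted p = 0.00532) and in HFD+Pc against control (2.28, limma adjusted p = 0.00767). Limma-voom did not make these calls (limma-voom adjusted p = 0.0921 and 0.128). Cfd lay at 0 to 0.128 FPKM in control libraries. Like Il1rn, it could enter the test only through the groups in which it was high. The 8 B and plasma cell markers summed to 29.6 to 41.2 FPKM in HFD+Pc, 53.1 to 87.2 in HFD and 24.3 to 36.8 in control livers. All 5 that were tested had positive differences in HFD against control. Limma called 2 of them, where 9.97% of all tested genes passed, and limma-voom also called 2. In HFD+Pc against HFD all 5 were negative. Limma called 0 of these and limma-voom 2, where 0.628% and 1.67% of all genes tested by each passed. The part of these cells in the Il1rn values was not tested.

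Il1rn rose in HFD livers to 2.87 times its control mean, a difference of 0.61 ± 0.13 on the log2(FPKM + 1) scale (limma adjusted p = 0.0228). In HFD+Pc livers it was 2.56 times its control mean, a rise of 0.53 ± 0.13 (limma adjusted p = 0.0179). On recovered reads, where no pseudocount of 1 shrinks a low gene, limma-voom gave 1.62 ± 0.28 for HFD minus control and 1.40 ± 0.28 for HFD+Pc minus control (limma-voom adjusted p = 0.00183 and 0.00303). The HFD call was lost without control replicate 1 or 2 or HFD replicate 1 (limma adjusted p = 0.0708, 0.0663 and 0.0661) and with no filter (limma adjusted p = 0.0575). The HFD+Pc call was lost without control replicate 1 or 2 or HFD+Pc replicate 3 (limma adjusted p = 0.0579, 0.0509 and 0.0581). HFD+Pc minus HFD was -0.08 ± 0.13, with a 95% interval of -0.37 to 0.21 (limma adjusted p = 0.815).

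The stretches before the start sites of 4 genes are shown as examples, chosen after the values were seen: the feedback genes Nfkbia and Tnfaip3, known targets of NF-kB, and Tlr5 and Il1rn, which rose with the diet. Each is the 250 bases before a RefSeq start site on build GRCm38.p6, on the gene's strand. Capitals mark matches to the NF-kB consensus (kappa-B site), searched with a fixed pattern of letters on both strands, with overlapping matches merged.
Nfkbia, chr12:55492648-55492897, minus strand: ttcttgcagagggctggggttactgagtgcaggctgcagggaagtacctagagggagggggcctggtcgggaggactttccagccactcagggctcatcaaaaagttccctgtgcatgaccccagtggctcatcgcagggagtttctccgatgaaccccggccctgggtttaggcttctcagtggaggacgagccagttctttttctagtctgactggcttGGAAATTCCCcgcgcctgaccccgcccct
Tnfaip3, chr10:19015411-19015660, minus strand: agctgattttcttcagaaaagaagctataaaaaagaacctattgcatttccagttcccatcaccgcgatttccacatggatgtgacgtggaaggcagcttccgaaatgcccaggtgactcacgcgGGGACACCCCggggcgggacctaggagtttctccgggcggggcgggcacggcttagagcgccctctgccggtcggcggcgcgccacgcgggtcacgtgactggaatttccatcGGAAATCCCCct
Tlr5, chr1:182954538-182954787, plus strand: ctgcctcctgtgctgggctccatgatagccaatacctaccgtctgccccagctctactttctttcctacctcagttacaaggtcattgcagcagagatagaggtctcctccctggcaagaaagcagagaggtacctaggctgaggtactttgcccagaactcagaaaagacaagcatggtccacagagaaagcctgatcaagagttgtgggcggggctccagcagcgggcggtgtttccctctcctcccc
Il1rn, chr2:24336610-24336859, plus strand: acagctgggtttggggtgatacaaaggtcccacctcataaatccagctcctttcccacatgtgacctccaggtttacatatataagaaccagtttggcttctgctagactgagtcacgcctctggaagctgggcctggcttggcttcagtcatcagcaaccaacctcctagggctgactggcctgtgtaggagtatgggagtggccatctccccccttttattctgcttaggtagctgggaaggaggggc
The Nfkbia stretch held 1 match, GGAAATTCCC, from 29 to 20 bases before the start site, which fits the pattern only on the opposite strand. The Tnfaip3 stretch held GGGACACCCC, matched on both strands from 125 to 116 bases before the start site. It also held GGAAATCCCC from 12 to 3 bases before the start site, matched only on the opposite strand. The Tlr5 and Il1rn stretches shown held none of these letters, and neither did the other 2 Il1rn start sites in the table. The table held 6 of the 10 genes with 9 start sites, of which 3 had a match, those of Tlr2, Nfkbia and the first of Tnfaip3. Myd88, which was not called either, had no match, and too few genes are in the table to read matches against the calls. Of all 32851 start sites in the table, 7.25% had one. Tlr4, Cd14, Lbp and Ly96 were not matched in the table. A match describes the letters and is no evidence of binding.

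Cd14, Tlr2 and Tlr4 are carried by macrophages, so macrophage and Kupffer cell markers were read beside them. The 18 markers summed to 530.7, 386.7 and 341.6 FPKM in HFD+Pc, 626.0, 613.4 and 473.8 FPKM in HFD and 526.3, 476.0 and 658.5 FPKM in control libraries. HFD+Pc replicates 3 and 4 were the lowest of the 9, and they were also the lowest for Cd14. Of 16 tested markers none changed in HFD+Pc against HFD by limma at an adjusted p under 0.05, where 0.628% of all tested genes did, with a median difference of -0.41 and all 16 negative. At an unadjusted p under 0.05, 7 of the 16 passed, where 15.6% of all tested genes did, and limma-voom called 0. In HFD+Pc against control 3 fell, the complement genes C1qa and C1qc and the pore protein gene Mpeg1, and none rose, with a median of -0.41, where 23.1% of all tested genes passed. In HFD against control 1 rose, the lysozyme gene Lyz2, with a median of 0.02, where 9.97% of all tested genes passed. No marker of the 18 was listed at 0 in all libraries, and the part of these cells in the Cd14 difference was not tested.

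Cd14 was also divided by each of the 16 tested macrophage markers, and by the sum of all 18, in every library, a step added after the values were seen. Over the summed markers, Cd14 was 0.00551 ± 0.000548 in HFD+Pc, 0.00683 ± 0.00187 in HFD and 0.00852 ± 0.00191 in control livers (SD, n = 3 each). The HFD+Pc libraries lay below all control libraries and overlapped with the HFD libraries. The mean ratio in HFD+Pc livers was lower than in control livers for 15 of the 16 markers and higher for 1, between 0.459 and 1.121 times the control ratio, and for 10 of the 16 all HFD+Pc libraries lay below all control libraries. The 16 ratios share the Cd14 values and are not independent. The exception was C1qa, itself lower in HFD+Pc livers, with a ratio of 0.0772 ± 0.00964 in HFD+Pc and 0.0688 ± 0.0164 in control livers. For Marco the ratio was 0.717 ± 0.0369 in HFD+Pc and 1.22 ± 0.892 in control livers, and the libraries overlapped. Against HFD livers the mean ratio was lower for 15 of the 16 markers, and all HFD+Pc libraries lay below all HFD libraries for 3. The size of the Cd14 difference relative to macrophage markers thus varied with the marker chosen.

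**Figure D3:**
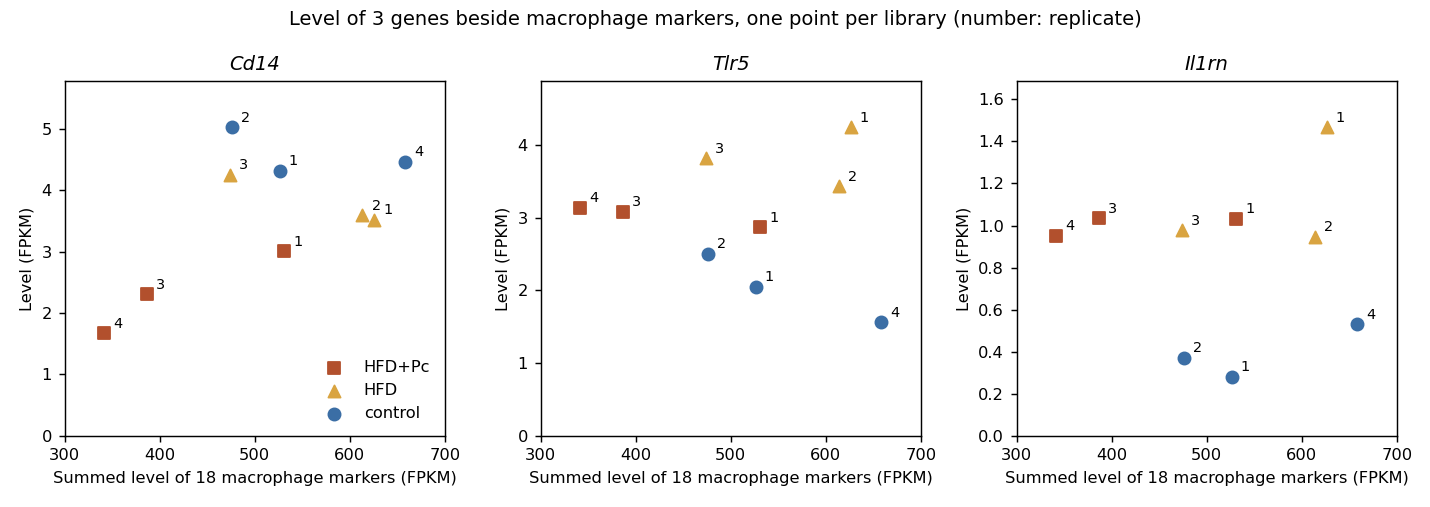
Level in FPKM (vertical axes, from 0) of Cd14, Tlr5 and Il1rn in each of the 9 libraries against the summed FPKM of 18 macrophage markers in the same library (horizontal axes, which do not start at 0); squares are HFD+Pc, triangles HFD and circles control libraries, numbered by replicate. HFD+Pc replicates 3 and 4 are lowest in both summed markers (386.7 and 341.6 FPKM) and Cd14, whereas for Il1rn the control libraries are lowest at summed marker levels of 476.0 to 658.5 FPKM.

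Other genes of the pathway were read from 8 lists of 137 genes, chosen like the 10 genes with earlier results of these data known. Of 97 tested, 5 rose and 4 fell in HFD against control (9.28%), 0 changed in HFD+Pc against HFD by limma at an adjusted p under 0.05, and 4 rose and 11 fell in HFD+Pc against control (15.5%). For HFD+Pc against HFD, 12 of the 97 passed at an unadjusted p under 0.05, beside 15.6% of all tested genes. Limma-voom called 0 of the 97, and 1.67% of the genes it tested. The adjusted shares lie near or below the 9.97%, 0.628% and 23.1% of all tested genes. Counts of single lists given below are to be read beside these shares. The medians of the 97 were -0.00, -0.02 and -0.04. In fits without 1 library, 3 of the 9 calls in HFD against control and 7 of the 15 in HFD+Pc against control held in all 9.

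Of 11 tested Toll-like receptors and cytosolic sensors beyond the 10 genes, none changed in HFD livers by limma at an adjusted p under 0.05, and 1 fell in HFD+Pc against control. In HFD against control 5 of the 11 passed at an unadjusted p under 0.05, beside 27.8% of all tested genes. Limma-voom called 2 of the 11, and 1484 of the 10987 genes it tested. The gene that fell was Tlr12, which in mice recognises profilin of parasites, with 5.13 ± 0.534 FPKM in HFD+Pc and 7.78 ± 0.885 FPKM in control livers (limma adjusted p = 0.0352). Tlr12 lost this call in 6 of 9 fits without 1 library, those without control replicate 1, 2 or 4, HFD replicate 2 or HFD+Pc replicate 1 or 3 (highest limma adjusted p = 0.113). Of 22 adaptors and kinases, 2 rose in HFD against control and 3 in HFD+Pc against control, with 1 falling. The ubiquitin-conjugating enzyme gene Ube2n, which builds the chains that activate the kinases below Myd88, rose by 0.50 ± 0.08 in HFD and by 0.62 ± 0.08 in HFD+Pc livers, both against control (limma adjusted p = 0.0116 and 0.00221). Its libraries held 9.50 to 10.9 FPKM in HFD+Pc, 8.39 to 10.1 in HFD and 6.15 to 6.24 in control livers, and both calls held in all 9 fits without 1 library. The signalling adaptor gene Traf3 rose by 0.43 and 0.41 in the same comparisons, and the kinase gene Chuk by 0.35 in HFD+Pc against control (limma adjusted p = 0.0494, 0.0361 and 0.0427). Traf3 in HFD livers lost its call in each of the 9 fits without 1 library, and Traf3 and Chuk in HFD+Pc livers in 5 fits each (highest limma adjusted p = 0.128).

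Irf7, the interferon regulatory factor downstream of Myd88, was the adaptor-list gene that fell. It had 5.86 to 10.5 FPKM in HFD+Pc, 10.2 to 20.7 in HFD and 19.2 to 25.5 in control libraries. The HFD+Pc libraries lay below all control libraries, and HFD libraries overlapped with both. The difference was -1.33 ± 0.26 for HFD+Pc minus control (limma adjusted p = 0.00916, highest 0.0345 without 1 library), -0.89 for HFD+Pc minus HFD and -0.44 for HFD minus control (limma adjusted p = 0.159 and 0.305). Of 4 tested NF-kB subunits, Rela fell by 0.24 ± 0.07 in HFD+Pc against control (limma adjusted p = 0.0407), a call lost in 6 of 9 fits without 1 library and by limma-voom (adjusted p = 0.0629).

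Of 18 tested inhibitors and feedback genes other than Nfkbia, Tnfaip3 and Il1rn, 1 rose and 2 fell in HFD against control, and 4 fell in HFD+Pc against control. Of all tested genes, 9.97% passed in the first comparison (5.35% lower) and 23.1% in the second (11.9% lower). Bcl3, a nuclear relative of Nfkbia, had 5.18 to 5.79 FPKM in HFD+Pc, 8.15 to 11.1 in HFD and 3.02 to 6.79 in control libraries, so HFD libraries lay above both other groups. It rose by 0.94 ± 0.21 in HFD against control (limma adjusted p = 0.0296), a call lost without control replicate 1 or 2 or HFD replicate 2 or 3 (highest limma adjusted p = 0.0803). For HFD+Pc minus HFD the Bcl3 difference was -0.73 ± 0.21 (limma adjusted p = 0.157). Zc3h12a, which cuts inflammatory transcripts, had 0.964 ± 0.182 FPKM in HFD+Pc, 1.32 ± 0.0746 in HFD and 1.74 ± 0.0664 in control livers, and fell by 0.49 ± 0.09 in HFD+Pc against control (limma adjusted p = 0.00736). The deubiquitinase gene Otulin fell by 0.36 in HFD+Pc against control (limma adjusted p = 0.0323), lost in 6 of 9 fits without 1 library. Tnip2, a partner of Tnfaip3, fell by 0.43 in HFD and by 0.51 in HFD+Pc livers against control (limma adjusted p = 0.0494 and 0.0142), and the first call was lost in 7 of 9 fits without 1 library and by limma-voom (adjusted p = 0.0773).

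The phosphatase gene Dusp1, which switches off stress kinases, fell by 1.72 ± 0.30 in HFD and by 1.41 ± 0.30 in HFD+Pc livers against control (limma adjusted p = 0.0136 and 0.0116). It had 5.89 to 6.49 FPKM in HFD+Pc, 3.75 to 5.65 in HFD and 10.6 to 30.02 in control libraries, so the control libraries were both highest and most scattered. Dusp1 is also an immediate early gene, which responds within minutes to handling of tissue. Of 7 tested immediate early genes, 2 fell in HFD against control, where 5.35% of all tested genes fell. In HFD+Pc against HFD 1 rose, where 0.182% of all tested genes rose. In HFD+Pc against control 1 rose and 4 fell, where 11.1% of all tested genes rose and 11.9% fell. The part of handling in these values was not tested.

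**Figure D4:**
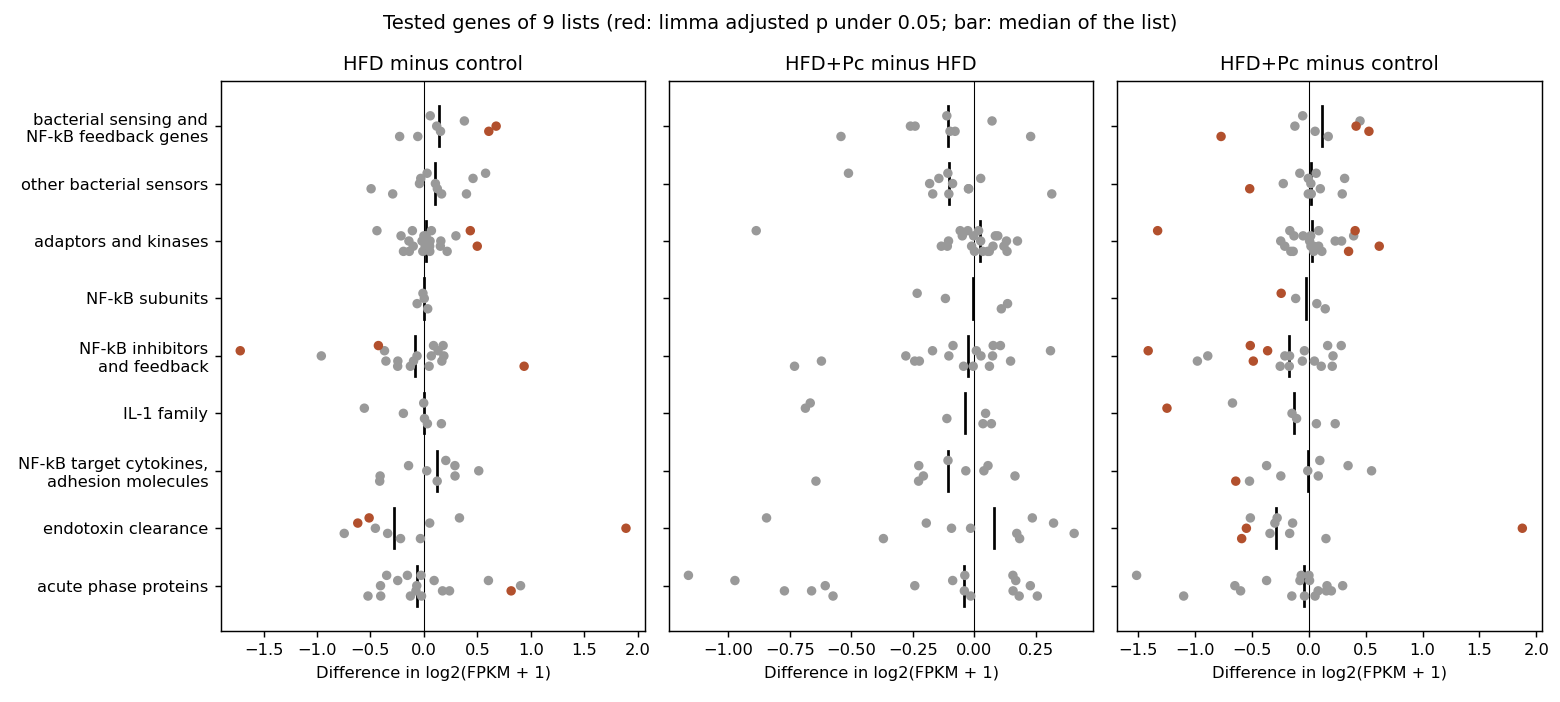
Difference in log2(FPKM + 1) (horizontal axes, a scale for each comparison) of the tested genes of 9 lists, the first being the 8 tested genes described here; each point is a gene, red marks a limma adjusted p under 0.05, and black bars are list medians. No gene is red in HFD+Pc minus HFD. In HFD+Pc minus control the inhibitor and feedback list has 4 red genes of 18, all left of 0, where 23.1% of all tested genes passed (11.9% lower).

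Among the 20 genes of NF-kB target cytokines, chemokines and adhesion molecules, 9 passed the filter. The superoxide dismutase gene Sod2 was at 16.8 to 18.7 FPKM and Lcn2, an iron-sequestering protein, at 2.06 to 13.1 FPKM over the 9 libraries. Tnf lay between 0.0364 and 0.218 FPKM and Il6 between 0 and 0.112 FPKM over the 9 libraries, both below the filter. Of 6 tested IL-1 family genes, Il1b, the cytokine whose receptor Il1rn blocks, fell by 1.24 ± 0.29 in HFD+Pc against control (limma adjusted p = 0.0158). It had 0.435 to 1.62 FPKM in HFD+Pc, 1.16 to 2.56 in HFD and 2.58 to 4.999 in control libraries, and its call was lost without control replicate 2 or HFD+Pc replicate 3 or 4 (highest limma adjusted p = 0.0570). Of the 9 tested target genes, Icam1, an adhesion molecule for leukocytes, fell by 0.64 ± 0.13 in HFD+Pc against control (limma adjusted p = 0.0106), and this held in all 9 fits without 1 library. Its levels were 1.69 ± 0.566 FPKM in HFD+Pc, 2.10 ± 0.141 in HFD and 3.14 ± 0.297 in control livers.

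Among 10 tested genes of endotoxin clearance, 1 rose and 2 fell in each comparison with control. The scavenger receptor gene Cd36, better known for fatty acid uptake, rose by 1.89 ± 0.15 in HFD and by 1.88 ± 0.15 in HFD+Pc livers (limma adjusted p = 0.00250 and 0.000954). The scavenger receptor genes Stab1 and Stab2, also markers of sinusoidal endothelium, fell by 0.62 and 0.51 in HFD against control (limma adjusted p = 0.0327 and 0.0165). Stab1 lost its call in 5 of 9 fits without 1 library and Stab2 without control replicate 2 (limma adjusted p = 0.0532). The 12 endothelial markers summed to 100.5 to 111.2 FPKM in HFD+Pc, 88.4 to 109.5 in HFD and 121.2 to 137.0 in control livers, and their part in these falls was not tested. Scarb1, the receptor for high-density lipoprotein, and Alpl, a phosphatase that detoxifies endotoxin, fell by 0.55 and 0.59 in HFD+Pc against control (limma adjusted p = 0.0326 and 0.0182), and lost these calls in 5 and 4 of 9 fits without 1 library.

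Lbp belongs to the acute phase proteins, of which 17 others were tested. Saa4 rose by 0.82 ± 0.21 in HFD against control (limma adjusted p = 0.0448), a call lost in 8 of 9 fits without 1 library, and no other member of the list changed in any comparison by limma at an adjusted p under 0.05. In each comparison of HFD+Pc livers 1 of the 17 passed at an unadjusted p under 0.05, and limma-voom called 0. At that unadjusted p, 15.6% of all tested genes passed against HFD and 38.2% against control. Saa1, a strongly inducible acute phase protein, ran from 9.08 to 103.0 FPKM in HFD+Pc, 9.43 to 244.4 in HFD and 6.53 to 235.9 in control libraries. Each group thus held low and high Saa1 libraries, in contrast to the narrow range of Lbp.

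For each of the 8 tested genes, the 3 genes with the most similar pattern over the 9 libraries were taken from genes with a mean of at least 1 FPKM, by Pearson's r of log2(FPKM + 1). This is a description over libraries that share their group structure, with no p. Nearest to Tlr5 were Cryz (0.981), Tmem28 (0.973) and Pmm1 (0.965). Nearest to Cd14 were Gm27252 (0.972), Cbx8 (0.957) and a gene model with no Ensembl identifier (0.948), and nearest to Il1rn were Fam126a (0.954), Qrsl1 (0.950) and Eral1 (0.950). Myd88 was most like Marco (0.911), a scavenger receptor gene of macrophages. Lbp was most like Adar (0.953), Ly96 like Fra10ac1 (0.947), Tlr2 like Gm27003 (0.925) and Nfkbia like Igkj2 (0.902).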

How the data were processed

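Liver RNA was extracted with Trizol and made into libraries by an Illumina protocol, per the labels' protocols. The submitters' processing notes name HISAT2 2.0.5 and the build GRCm39. The counting tool and the annotation are not given in the sources used here. The authors deposited FPKM for 54007 genes or gene models in 9 libraries, per the file headers; 307 rows carry no Ensembl identifier and 52093 of the 53700 others were named from a gene name table.

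The 10 genes and all gene lists were chosen with earlier results of these data known. The 10988 genes that reached 1 FPKM in 3 libraries or more were tested on log2(FPKM + 1) with limma 3.58.1 (R 4.3.3; lmFit and eBayes, trend and robust both on). The 9 libraries entered 1 model with a mean per group and no covariate, and p-values were adjusted by Benjamini-Hochberg over all tested genes at a threshold of 0.05. Single values and the ratio of Cd14 to Ly96 were compared by two-sided exact permutation tests over the 20 splits of 3 against 3. The test was tested on simulated data.

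Named genes were all 10, from each pathway list up to 3 passing genes per direction and comparison by lowest adjusted p and any needed to complete a count of 5 or fewer, and for each tested gene up to 3 of the most similar genes; 1 of these is not reported here. Marker lists were given as counts and sums, and not every marker that passed is named. Those that passed and are named, and Saa1, Tnf, Il6, Sod2, Lcn2 and Marco, were named after their values were seen.

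The deposited FPKM of a gene moved in equal steps, each taken as 1 read. Dividing by the step gave whole numbers for 26277 of the 26278 genes detected, within 0.02 or, for very high counts, a wider margin. In 25345 of them the step came from the annotated length in GENCODE. For the others, Tlr5 among them, it was the largest step that gave whole numbers, which may hold more than 1 read. Whether they are reads or read pairs is not known. Against its recovered total, the library size implied by a library's FPKM was 97.8% to 108.7%. Recovered reads served limma-voom as an alternative. For genes below 1 FPKM it was also run with a minimum of 0.1 FPKM, a choice made after the data were seen, and limma-voom values of the 10 genes come from that fit, those of other genes from the fit with the filter of 1 FPKM. Other alternatives were scalings, pseudocounts, filters, fits of 2 groups alone, a replicate block, eBayes without trend, and each library left out with the tested genes kept as they were, also chosen after the data were seen. Promoters came from RefSeq on GRCm38.p6, an earlier build than the alignment, and no other coordinates are given. Tables were made with Python 3.11.15, numpy 2.4.6, pandas 2.3.3, scipy 1.17.1 and matplotlib 3.10.9.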

Additional observations from a re-analysis of the deposited data

How the results depend on the processing

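Over 30 differences of the 10 genes and 492 alternative values, 458 kept direction and side of the threshold, 19 lost a call, 1 gained one and 14, none of them called, changed sign. Tlr5, Il1rn and Cd14 kept their direction in every comparison with control under every alternative run. Sign changes outside the leave-one-out fits were Nfkbia in HFD minus control by limma-voom (0.022 with either filter), Tlr4 in HFD+Pc minus HFD by limma-voom with a minimum of 0.1 FPKM (-0.022) and Ly96 in HFD+Pc minus HFD with the replicate block (-0.037). The limma-voom median over all genes was itself 0.078 in HFD minus control and -0.064 in HFD+Pc minus HFD. With the minimum of 0.1 FPKM it was 0.083 and -0.075. These medians lie further from 0 than the limma-voom values of Nfkbia and Tlr4. Leaving out 1 library gave sign changes for Lbp (-0.036 to 0.27) and Nfkbia (-0.14 to 0.080) in HFD minus control, Tlr2 (-0.25 to 0.0043), Ly96 (-0.071 to 0.28) and Il1rn (-0.14 to 0.032) in HFD+Pc minus HFD, and Tlr2 (-0.091 to 0.18), Lbp (-0.28 to 0.027) and Myd88 (-0.090 to 0.011) in HFD+Pc minus control. The causes were not tested.

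Of the 10 genes, 2 were called in HFD against control, 0 with no filter and 1 with only these 2 groups fitted, where Il1rn was lost; leaving out 1 library gave 1 to 2. In HFD+Pc against HFD 0 were called under each alternative, and in HFD+Pc against control 3, or 1 to 4 without 1 library. Over all genes, 1095 were called in HFD against control, 725 with a minimum of 0.1 FPKM, 209 with no filter, 659 with only the 2 groups and 363 to 1125 without 1 library. In HFD+Pc against HFD 69 were called, 27 with a minimum of 0.1 FPKM, 3 with no filter, 107 with quantile normalization, 22 with only the 2 groups, 30 without trend and robust estimation, 183 by limma-voom, 175 by limma-voom with the lower minimum and 5 to 121 without 1 library. In HFD+Pc against control 2538 were called, 1383 with no filter and 1399 to 2646 without 1 library. The causes of these shifts in number were not tested.

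Deviations from the group means of same-numbered libraries correlated from -0.12 to 0.05 across genes. Libraries with different numbers were not compared in this way. Whether the replicate numbers pair the libraries for some genes cannot be told from these correlations. With the replicate number as a block, 0, 0 and 1 of the 10 genes and 232, 3 and 1058 of all genes were called in the 3 comparisons. Under the block Tlr5 had a limma adjusted p of 0.0728 and Il1rn of 0.0894 in HFD against control, and Tlr5 of 0.0991, Il1rn of 0.0893 and Cd14 of 0.0318 in HFD+Pc against control.

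Depth limits Ly96, Tlr4, Tnfaip3 and Il1rn most, with as few as 33, 48, 34 and 29 recovered reads in a library. Cd14 comes next, with as few as 49, where counting alone gives a coefficient of variation of 14.3%.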
